A study of Caenorhabditis elegans with 6 samples.

Results

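The COPI and COPII coats shape the vesicles that move proteins between the endoplasmic reticulum and the Golgi. The 10 coat genes described here were chosen by name: sar-1, sec-23, sec-24.1 and sec-24.2 of COPII, and copa-1, copb-1, copb-2, copd-1, copg-1 and arf-1.2 of COPI. All 10 were found among the 46739 features of the table. Of these, 9 stood under these symbols, and copg-1 was listed under its sequence name T14G10.5. RNA was from whole wild-type N2 Caenorhabditis elegans at the L4 larval stage, grown at 20 °C on HT115 bacteria with the RNA interference (RNAi) running throughout development. RNAi by feeding lowers a transcript through double-stranded RNA of the same sequence, made by the bacteria the worms are fed. One group was fed the rab-11.1 clone, which targets a small GTPase of recycling endosomes, and the other was fed empty vector (EV) bacteria. Each group had 3 libraries of polyadenylated RNA, labelled biological replicates 1 to 3, and levels were given as RPKM (reads scaled to transcript length and library depth).

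COPII vesicles leave the endoplasmic reticulum. The GTPase SAR1 starts the coat, SEC23 and SEC24 form its inner layer, SEC24 binds cargo, and SEC13 with SEC31 forms the outer cage. COPI vesicles mainly return proteins and membrane from the Golgi, and their coat, coatomer, is recruited to the membrane as one complex by an ARF GTPase. Cells that secrete much, such as those of the worm epidermis and intestine, send collagens and yolk proteins through this pathway.

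Several facts of the whole series bear on what follows. The libraries held 22946375 to 25107994 reads after rab-11.1 RNAi and 27190567 to 30183162 reads after EV RNAi, depths recovered from how the values step. The targeted gene rab-11.1 stood at 151.3, 137.8 and 632.6 RPKM in worms on rab-11.1 RNAi, against 411.1, 398.2 and 409.5 RPKM in worms on EV RNAi. The library labelled replicate 3 of rab-11.1 RNAi thus goes against its label for the target. Some counts and ranges are also given without it. Those of groups without overlap, of same-number pairs and of tissue markers are given with it only. Reads of the double-stranded RNA, if sampled with the worms, would count towards rab-11.1, and the RPKM values cannot tell them apart from its transcript. Of 13833 features tested with limma, a linear model that pools the spread over features, 1245 had an adjusted p under 0.05. Of these, 1097 rose in rab-11.1 RNAi worms and 148 fell. Without that library 647 passed, 566 higher and 81 lower. Over all 13833, the median log2 fold change was 0.09. Median-of-ratios scaling brought that median to -0.02 (553 rises, 284 falls) and quantile normalization to -0.04 (524 rises, 249 falls). Coat genes are therefore also given relative to the median of 0.09. RNA came from whole animals, in which fewer cells of a type and less RNA per cell cannot be told apart.

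No coat gene passed the test. Of the 10 members, 0 were higher and 0 lower at an adjusted p of 0.05 by limma, whereas 9% of all tested features passed. At an unadjusted p under 0.05 there were also 0 of 10, against 26.6% of all tested features, and limma-voom on recovered reads called 0. With median-of-ratios scaling 3 members (sec-23, sec-24.1 and sec-24.2) had an unadjusted p under 0.05, against 23.8% of all features, and with quantile normalization 1 did (sec-24.2), against 23.3%. Log2 fold changes ran from -0.13 for sec-24.2 to 0.11 for copd-1, with a median of 0.03, and their 95% intervals together spanned -0.32 to 0.27. Without the library labelled replicate 3 of rab-11.1 RNAi the fold changes ran from -0.17 to 0.12 (log2), and 0 members passed by limma. Of the signs, 7 were positive and 3 negative, and with median-of-ratios scaling all 7 positive ones turned negative. Relative to the median of all features, the members lay between -0.23 and 0.01 on the log2 scale. The intervals hold for one scaling. They spanned -0.44 to 0.13 with median-of-ratios scaling and -0.46 to 0.21 with quantile normalization, and a p above the threshold does not show equal levels.

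**Figure D1:**
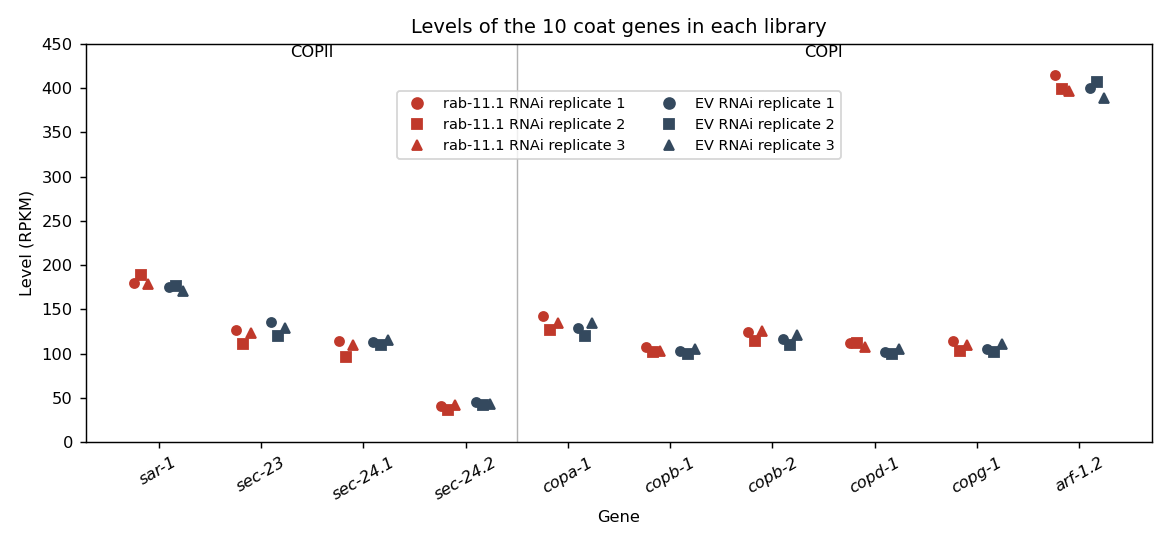
Level of each coat gene (RPKM, linear axis from 0) in the 3 rab-11.1 RNAi libraries (red, left of each pair) and the 3 EV RNAi libraries (dark, right), with a marker shape per replicate number. arf-1.2 lies highest, near 400 RPKM, and sec-24.2 lowest, near 40 RPKM, and the groups lie close together in every gene.

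All 10 members are protein-coding genes. The COPII GTPase gene sar-1 (WBGene00022678, WBcel235 chromosome IV, 4511893 to 4513319, minus strand) stood at 179.5, 189.4 and 179 RPKM in worms on rab-11.1 RNAi, against 175.9, 176.7 and 171.4 RPKM in worms on EV RNAi. All rab-11.1 RNAi libraries were above all EV RNAi libraries, by a small margin. The means were 182.6 ± 5.84 RPKM in worms on rab-11.1 RNAi and 174.7 ± 2.82 RPKM in worms on EV RNAi (SD, n = 3 each), a log2 fold change of 0.06 with a 95% interval of -0.09 to 0.22 (limma adjusted p = 0.59).

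The gene sec-23 (WBGene00004754, chromosome V, 20091263 to 20105685, plus strand) encodes the inner coat subunit that activates GTP hydrolysis by SAR1. Its levels were 126.7, 110.7 and 123.5 RPKM in worms on rab-11.1 RNAi and 136.1, 119.8 and 129.6 RPKM in worms on EV RNAi. The groups overlapped, although each rab-11.1 RNAi library was below the EV RNAi library of the same number. The mean was 120.3 ± 8.5 RPKM in worms on rab-11.1 RNAi and 128.5 ± 8.21 RPKM in worms on EV RNAi (SD, n = 3 each), a log2 fold change of -0.09 (95% interval -0.30 to 0.11, limma adjusted p = 0.54), and -0.22 with median-of-ratios scaling (limma adjusted p = 0.17). An exon of sec-23 overlaps ncx-1 on the opposite strand, listed at 37.9 to 51.8 RPKM over the libraries. Use of the strand in counting is not given in the sources used here, so reads of this overlap could belong to either gene.

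Worms carry a pair of SEC24 genes, which encode the cargo-binding subunit. The gene sec-24.1 (WBGene00004755, chromosome IV, 11561986 to 11566194, minus strand) stood at 113.8, 96.78 and 109.8 RPKM in worms on rab-11.1 RNAi and at 112.8, 109.7 and 115 RPKM in worms on EV RNAi. The groups overlapped, and replicate 2 was the lowest library in each. Its log2 fold change was -0.08 (95% interval -0.27 to 0.12, limma adjusted p = 0.601), and -0.21 with median-of-ratios scaling (limma adjusted p = 0.192).

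The paralogue sec-24.2 (WBGene00004756, chromosome IV, 12355600 to 12360792, minus strand) was lower in level, at 40.79, 36.55 and 41.53 RPKM in worms on rab-11.1 RNAi, against 45.14, 41.81 and 43.68 RPKM in worms on EV RNAi. All 3 rab-11.1 RNAi libraries lay below all 3 EV RNAi libraries, the closest pair being 41.53 and 41.81 RPKM. The means were 39.63 ± 2.69 RPKM in worms on rab-11.1 RNAi and 43.55 ± 1.67 RPKM in worms on EV RNAi (SD, n = 3 each), and the log2 fold change of -0.13 was the lowest of the 10 members (95% interval -0.32 to 0.05, limma adjusted p = 0.333). It was -0.26 with median-of-ratios scaling (95% interval -0.44 to -0.08, limma adjusted p = 0.102) and also with quantile normalization (95% interval -0.46 to -0.06, limma adjusted p = 0.127). An exon overlaps best-22 on the opposite strand, listed at 9.06 to 12 RPKM.

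Coatomer genes formed a narrow band of levels. The gene copa-1 (WBGene00022119, chromosome I, 2895329 to 2900860, minus strand), which encodes the alpha subunit, stood at 142.2, 126.9 and 135.2 RPKM in worms on rab-11.1 RNAi and at 128.7, 119.7 and 134.3 RPKM in worms on EV RNAi. The groups overlapped, with each rab-11.1 RNAi library above the EV RNAi library of the same number. The beta subunit gene copb-1 (WBGene00021292, chromosome II, 3078796 to 3087682, plus strand) was at 107.6, 102 and 103.6 RPKM in worms on rab-11.1 RNAi, against 102.5, 100.2 and 105.6 RPKM in worms on EV RNAi. Its groups overlapped too. The log2 fold change was 0.08 for copa-1 (95% interval -0.11 to 0.27, limma adjusted p = 0.582) and 0.02 for copb-1 (95% interval -0.13 to 0.18, limma adjusted p = 0.86).

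The gene copb-2 (WBGene00009542, chromosome IV, 9459731 to 9464020, plus strand) encodes the beta-prime subunit, which together with alpha binds retrieval signals of cargo. It stood at 125, 114.8 and 125.7 RPKM in worms on rab-11.1 RNAi and at 116.1, 110.1 and 121.1 RPKM in worms on EV RNAi, and the groups overlapped. Its log2 fold change was 0.07 (95% interval -0.10 to 0.25, limma adjusted p = 0.59). The gamma subunit gene copg-1 (WBGene00011775, chromosome IV, 10151947 to 10155654, plus strand) stood at 114.7, 102.6 and 109.4 RPKM in worms on rab-11.1 RNAi, against 105.6, 101.5 and 110.9 RPKM in worms on EV RNAi. These groups overlapped as well, with replicate 2 lowest in each. The log2 fold change of copg-1 was 0.04 (95% interval -0.14 to 0.22, limma adjusted p = 0.783).

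The delta subunit gene copd-1 (WBGene00015734, chromosome III, 6622700 to 6624972, minus strand) had the highest fold change of the members. It stood at 111.7, 111.8 and 107.8 RPKM in worms on rab-11.1 RNAi, against 101.8, 100.1 and 105.8 RPKM in worms on EV RNAi. The groups did not overlap, with a gap of about 2 RPKM between 107.8 and 105.8 RPKM. The means were 110.4 ± 2.25 RPKM in worms on rab-11.1 RNAi and 102.6 ± 2.9 RPKM in worms on EV RNAi (SD, n = 3 each), a log2 fold change of 0.11 (95% interval -0.05 to 0.26, limma adjusted p = 0.351), which is 0.01 above the median of all features. Exons of copb-2 and copd-1 overlap F38E11.6 and C13B9.2 on the opposite strand, and neither neighbour was above 3.82 RPKM in any library.

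**Figure D2:**
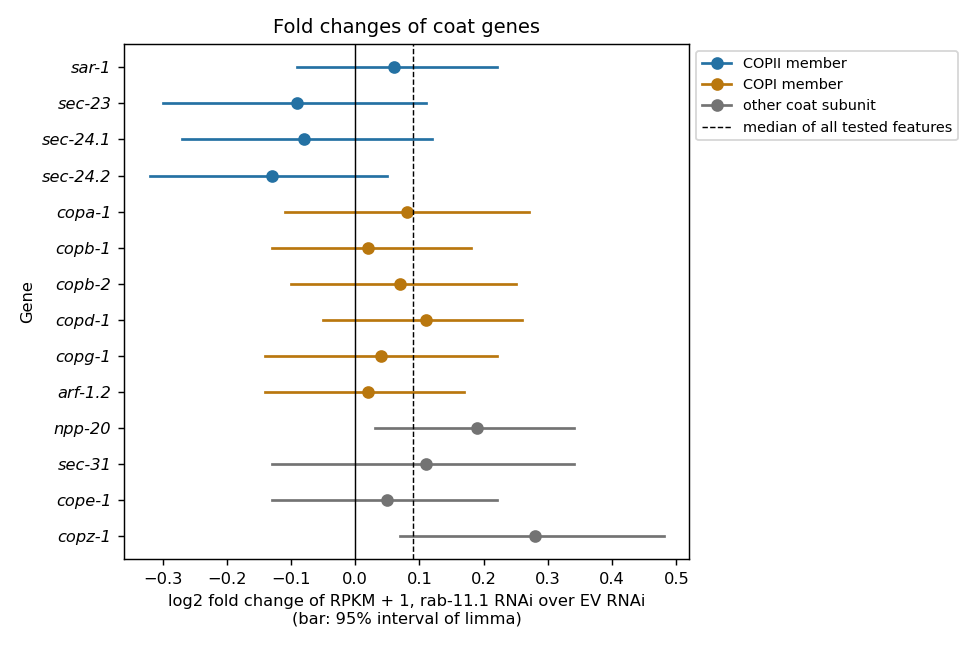
Log2 fold change of RPKM + 1, rab-11.1 RNAi over EV RNAi, with the 95% interval of limma (bars), for COPII members (blue), COPI members (orange) and the other coat subunits (grey). The interval of each of the 10 members includes 0, and the dashed line marks the median of all tested features, 0.09.

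Members whose libraries did not overlap numbered 2 higher (sar-1 and copd-1) and 1 lower (sec-24.2) out of 10. Of all tested features, 27.4% were higher and 6.53% lower without overlap, 33.9% in all, so the members' share of 30% was close to that of all features. Between libraries of the same number, 4 members were higher in all 3 pairs (sar-1, copa-1, copb-2 and copd-1) and 2 were lower in all 3 (sec-23 and sec-24.2). The same held for 40.6% and 19.2% of all tested features.

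Counting error was smaller than the spread between libraries in every member and group. The members rested on 3031 reads (sec-24.2) to 15505 reads (copa-1) per library, and counting error at the lowest read number was 1.82% for sec-24.2 and 0.919% for copa-1. The spread between libraries gave coefficients of variation of 2.04% (copd-1) to 8.34% (sec-24.1) after rab-11.1 RNAi and 1.62% (sar-1) to 6.39% (sec-23) after EV RNAi.

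Replicate 2 was often the lowest library. It was the lowest library of the rab-11.1 RNAi group in 7 of 10 members and the lowest of the EV RNAi group in 8 of 10, with 7 members lowest in both. Among all tested features 40.7% were lowest in replicate 2 of the rab-11.1 RNAi group, 42.4% in that of the EV RNAi group and 27.4% in both. The summed level of 8 germline markers was also lowest in replicate 2, at 260.3 RPKM against 382.2 and 399.3 RPKM in the other rab-11.1 RNAi libraries, and at 327.6 RPKM against 511.7 and 481.5 RPKM in the other EV RNAi libraries. Other tissues stood out in replicate 2 too. Sums of pharyngeal gland markers were lowest there in both groups, and sums of neuronal and epidermal markers were highest. Intestinal sums were lowest there after rab-11.1 RNAi and highest after EV RNAi. All 8 germline markers were detected, and 0 passed by limma between the groups, although 5 did with the replicate number as a block. After rab-11.1 RNAi 7 of the 8 were lower, at a median log2 fold change of -0.36. Those 5 block calls (pgl-1, pgl-3, glh-1, htp-3 and mex-5) were all falls. Whether the content of germline or another tissue had a part in the replicate pattern of the coat genes was not tested. With the replicate number as a block, 21% of all tested features passed (2906 of 13833) and still 0 of the 10 members, sec-24.2 having the lowest adjusted p by limma, 0.2.

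The ARF GTPase gene arf-1.2 (WBGene00000182, chromosome III, 5714886 to 5717586, plus strand, named arf-1 in the annotation) recruits coatomer. It was the most abundant member, at 414.4, 398.9 and 397.3 RPKM in worms on rab-11.1 RNAi and at 400.1, 407.1 and 388.6 RPKM in worms on EV RNAi. The groups overlapped, with means of 403.5 ± 9.46 RPKM in worms on rab-11.1 RNAi and 398.6 ± 9.33 RPKM in worms on EV RNAi (SD, n = 3 each), and the log2 fold change was 0.02 (95% interval -0.14 to 0.17, limma adjusted p = 0.89).

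Its paralogue arf-1.1 (WBGene00000190, named warf-1 in the annotation), no coat member itself but of the same GTPase family, rose strongly. It stood at 39.28, 75.83 and 43.64 RPKM in worms on rab-11.1 RNAi, against 2.781, 3.927 and 2.383 RPKM in worms on EV RNAi, from 612, 1202 and 744 reads against 57, 80 and 44 reads. The groups were far apart, and the mean was 17.5 times as high after rab-11.1 RNAi. The log2 fold change of RPKM + 1 was 3.70 (SE 0.26, limma adjusted p = 0.00172), and 3.81 without the library labelled replicate 3 of rab-11.1 RNAi. Within libraries arf-1.1 amounted to 0.0948, 0.19 and 0.11 of the arf-1.2 level after rab-11.1 RNAi, against 0.00695, 0.00965 and 0.00613 after EV RNAi. A further family member, arf-3 (named arf-5 in the annotation), stood at 530.1, 493.4 and 517.8 RPKM in worms on rab-11.1 RNAi and at 520.7, 494.6 and 484.8 RPKM in worms on EV RNAi, with overlapping groups. Reads shared between these paralogues cannot be assigned from RPKM values, and this was not tested.

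Levels per length can be compared between genes, and all 10 members were well expressed, at the 81.6 to 97.7 percentile of tested features. In EV RNAi libraries the order by mean RPKM was arf-1.2 (398.6), sar-1 (174.7), sec-23 (128.5), copa-1 (127.6), copb-2 (115.8), sec-24.1 (112.5), copg-1 (106), copb-1 (102.8), copd-1 (102.6) and sec-24.2 (43.55). The GTPase genes arf-1.2 and sar-1 at the top, and sec-24.2 at the bottom, stood clear of their neighbours in every library. The genes between them overlapped with the next in order among EV RNAi libraries. After rab-11.1 RNAi, copa-1 lay above copb-2, and copb-2 above sec-24.1, without overlap. The 5 coatomer members differed little from each other within a library, the highest being 1.32, 1.24 and 1.31 times the lowest after rab-11.1 RNAi and 1.26, 1.2 and 1.27 times after EV RNAi.

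Ratios within a library do not depend on its scaling. The sec-24.1 level was 2.79, 2.65 and 2.64 times that of sec-24.2 after rab-11.1 RNAi, against 2.5, 2.62 and 2.63 times after EV RNAi. The groups did not overlap, but the gap between 2.64 and 2.63 was small beside the spread. The log2 ratio was 0.06 higher after rab-11.1 RNAi (two-sided exact permutation p = 0.1, the smallest that 3 against 3 libraries can give). Both SEC24 genes summed to 1.22 ± 0.01 times the sec-23 level after rab-11.1 RNAi and to 1.22 ± 0.053 times after EV RNAi (SD, n = 3 each).

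Coatomer members were also set against the inner COPII coat, a ratio chosen after the values of the members were seen and given without a test. It does not compare whole coats. The COPII genes sar-1, npp-20 and sec-31 are left out, at log2 fold changes of 0.06, 0.19 and 0.11. So are the coatomer genes copz-1 and cope-1, at 0.28 and 0.05. The 5 coatomer members summed to 601.1, 558.2 and 581.6 RPKM in worms on rab-11.1 RNAi and to 554.7, 531.6 and 577.7 RPKM in worms on EV RNAi. The inner COPII coat genes sec-23, sec-24.1 and sec-24.2 summed to 281.4, 244 and 274.8 RPKM in worms on rab-11.1 RNAi and to 294, 271.3 and 288.3 RPKM in worms on EV RNAi. Each sum overlapped between the groups. Their ratio, coatomer over inner COPII coat, was 2.14, 2.29 and 2.12 after rab-11.1 RNAi, against 1.89, 1.96 and 2 after EV RNAi. All rab-11.1 RNAi libraries were above all EV RNAi libraries, by 0.16 on the log2 scale, and by 0.18 without the library labelled replicate 3 of rab-11.1 RNAi.

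**Figure D3:**
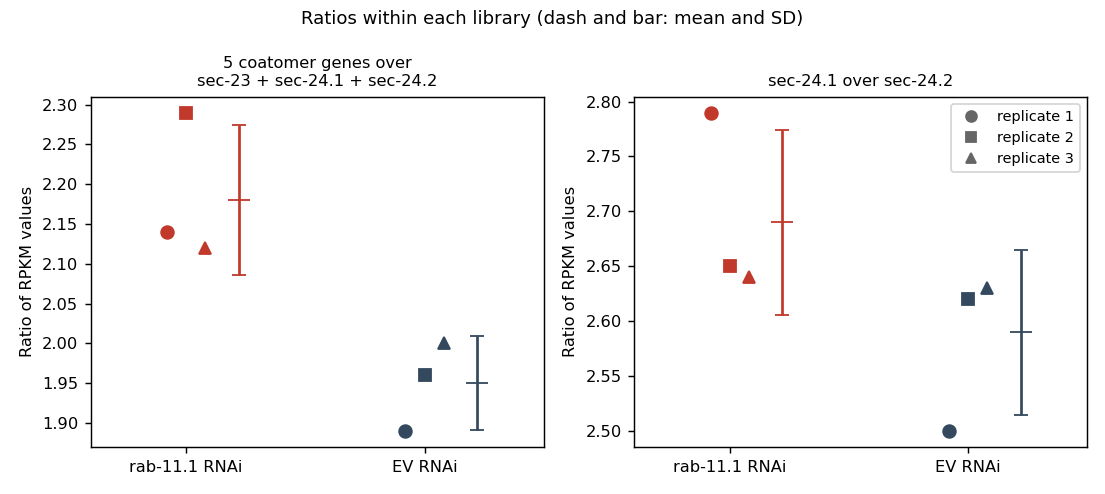
Ratios of RPKM values within each library, rab-11.1 RNAi (red, left) and EV RNAi (dark, right), with the mean and SD beside the 3 libraries. The coatomer over inner COPII ratio lies between 2.12 and 2.29 after rab-11.1 RNAi and between 1.89 and 2 after EV RNAi, and the sec-24.1 over sec-24.2 ratios nearly touch, at 2.64 and 2.63. Axes do not start at 0.

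The remaining subunits of both coats did not pass either. The SEC13 gene npp-20, whose product serves both the outer COPII cage and the nuclear pore, stood at 77.39, 75.69 and 75.8 RPKM in worms on rab-11.1 RNAi, against 65.77, 69.17 and 65.95 RPKM in worms on EV RNAi. Its groups did not overlap, at a log2 fold change of 0.19 (limma adjusted p = 0.121). The cage gene sec-31 was lower in level, at 38.26, 34.08 and 36.76 RPKM in worms on rab-11.1 RNAi and at 36.19, 29.66 and 35.48 RPKM in worms on EV RNAi, with overlap. The zeta coatomer gene copz-1 stood at 130.6, 150.1 and 125.3 RPKM in worms on rab-11.1 RNAi, against 113.6, 108.8 and 111.3 RPKM in worms on EV RNAi. These groups did not overlap, at a log2 fold change of 0.28 (limma adjusted p = 0.0984). The epsilon gene cope-1, at 90.49, 84.49 and 86.11 RPKM in worms on rab-11.1 RNAi and 86.64, 78.86 and 87.59 RPKM in worms on EV RNAi, overlapped.

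Around the coats, over 5 lists of 71 genes, 67 were tested, 9 rose and 0 fell by limma, against 7.93% of all features higher and 1.07% lower. Of 12 other coat and ARF genes tested, 1 rose (arf-1.1), with a median log2 fold change of 0.08. Of these 12, 6 had an unadjusted p under 0.05 by limma, against 26.6% of all tested features. With median-of-ratios scaling only arf-1.1 (higher), tfg-1 and sec-16 (both lower) did, against 23.8% of all features. With quantile normalization copz-1 (higher) and arf-6 (lower) did as well, against 23.3%. Among 12 tested cargo and retrieval receptor genes, which include the p24 family and the KDEL receptors, 0 passed and 2 had an unadjusted p under 0.05 (median 0.03). Of 12 tested genes for entry into the endoplasmic reticulum, such as translocon subunits, 0 passed and 2 had an unadjusted p under 0.05 (median -0.07). With median-of-ratios scaling that median was -0.20, against -0.02 over all features. Then sec-61, sec-61.B, trap-1 to trap-4 and srpa-72 were lower at an unadjusted p under 0.05, and 0 passed. With quantile normalization only sec-61 and srpa-72 were under it. Limma-voom called 9 over the 5 lists. With the replicate block 16 of the 67 passed, against 21% of all tested features. Without the library labelled replicate 3 of rab-11.1 RNAi only 5 passed, and calls over all features fell as well.

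Of 25 tested genes for tethering and fusion of vesicles, 5 rose and 0 fell, with a median log2 fold change of 0.23, against 0.09 over all features (0.11 against -0.02 with median-of-ratios scaling). At an unadjusted p under 0.05 by limma there were 15 of 25, against 26.6% of all tested features. That excess depended on the scaling. Under either rescaling only sec-22, rab-1, ykt-6, gos-28 and vti-1 stayed under 0.05. Of all tested features, 23.8% did so with median-of-ratios scaling and 23.3% with quantile normalization. The R-SNARE gene sec-22, which acts in fusion between the endoplasmic reticulum and the Golgi, stood at 61.14, 65.46 and 58.67 RPKM in worms on rab-11.1 RNAi, against 39.52, 40.66 and 41.75 RPKM in worms on EV RNAi. It was higher in every rab-11.1 RNAi library, with a log2 fold change of 0.59 (SE 0.07, limma adjusted p = 0.00598), and it passed under all 15 alternative settings. The GTPase gene rab-1, which directs tethering at the Golgi, stood at 395.8, 426.4 and 382.9 RPKM in worms on rab-11.1 RNAi, against 321.9, 309.4 and 312.5 RPKM in worms on EV RNAi (log2 fold change 0.35, limma adjusted p = 0.0318). The SNARE genes ykt-6, gos-28 and vti-1 also rose, by 0.39, 0.47 and 0.48 on the log2 scale (limma adjusted p = 0.0331, 0.0269 and 0.0285). The calls of rab-1, ykt-6, gos-28 and vti-1 ended under both rescalings, where 1 of the 25 genes, sec-22, passed. With median-of-ratios scaling their log2 fold changes were 0.22 for rab-1, 0.26 for ykt-6, 0.35 for gos-28 and 0.36 for vti-1. With quantile normalization they were 0.36 for rab-1, 0.25 for ykt-6, 0.33 for gos-28 and 0.32 for vti-1. Leaving out 1 library ended the calls of rab-1 and vti-1 in all 6 fits and the calls of ykt-6 and gos-28 in 5 of 6, with limma adjusted p up to 0.143 for rab-1, 0.108 for vti-1, 0.13 for ykt-6 and 0.121 for gos-28. The log2 fold changes stayed between 0.31 and 0.38 for rab-1, 0.42 and 0.53 for vti-1, 0.35 and 0.45 for ykt-6, and 0.43 and 0.54 for gos-28. Without the library labelled replicate 3 of rab-11.1 RNAi, ykt-6 passed (limma adjusted p = 0.0408).

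Sensors and targets of the unfolded protein response, the signalling that adjusts the capacity of the endoplasmic reticulum, gave 3 rises and 0 falls out of 6 tested (median log2 fold change 0.50). Of these 6, 4 had an unadjusted p under 0.05 by limma, against 26.6% of all tested features. The transcription factor gene xbp-1 stood at 366.4, 453.7 and 391.5 RPKM in worms on rab-11.1 RNAi, against 223.4, 242 and 213.2 RPKM in worms on EV RNAi (log2 fold change 0.83, limma adjusted p = 0.00588). The sensor gene ire-1 rose by 0.54 and a BiP chaperone gene, hsp-4, by 0.63 on the log2 scale (limma adjusted p = 0.00995 and 0.0241). The chaperone gene hsp-3 overlapped between the groups, at a log2 fold change of 0.08 (limma adjusted p = 0.589). Neither atf-6 (0.22) nor pek-1 (0.46) passed (limma adjusted p = 0.308 and 0.117). The call of hsp-4 ended in 5 of 6 fits that left out 1 library, among them the one without the library labelled replicate 3 of rab-11.1 RNAi (highest adjusted p = 0.0823), at log2 fold changes of 0.51 to 0.70 over the 6 fits.

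**Figure D4:**
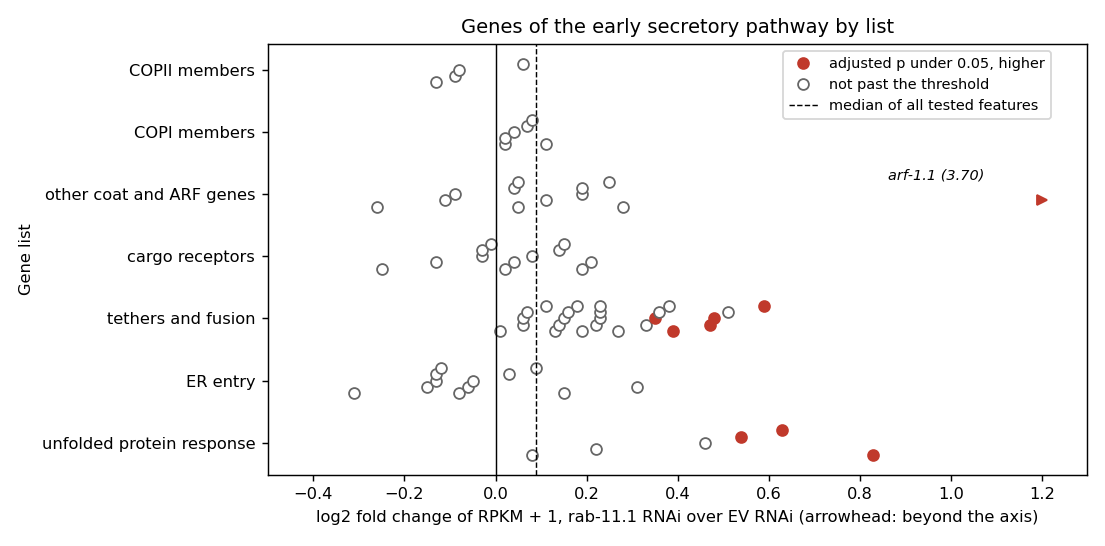
Log2 fold change of RPKM + 1, rab-11.1 RNAi over EV RNAi, of each tested gene by list (rows), filled red where the adjusted p was under 0.05 and higher, open otherwise. Both coat rows hold open points alone, and of the 10 members only 1, copd-1, lies above the dashed median of 0.09. Filled points lie among tethers and fusion (5) and the unfolded protein response (3), and arf-1.1 lies beyond the axis at 3.70.

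Markers of 6 tissues were detected, and 0 of them were at 0. Of 8 intestinal markers tested, vha-6 fell (log2 fold change -0.50, limma adjusted p = 0.0369). Among these 8, 6 were lower and 2 higher by sign, with a median log2 fold change of -0.18. Like vha-6, pept-1 was lower without overlap (log2 fold change -0.24, limma adjusted p = 0.141). The intestinal regulator gene elt-2 was higher without overlap, at a log2 fold change of 0.30 (limma adjusted p = 0.0936, and 0.0307 with the replicate block). The intestinal sums ran from 1421 to 1820 RPKM in worms on rab-11.1 RNAi and from 1734 to 2023 RPKM in worms on EV RNAi. Body wall muscle markers summed to 6026 to 6162 RPKM in worms on rab-11.1 RNAi and 6316 to 6514 RPKM in worms on EV RNAi. These sums did not overlap. Of the 8 muscle markers, 0 passed by limma, and 4 had an unadjusted p under 0.05, against 26.6% of all tested features. The myosin gene unc-54 passed with the replicate block (log2 fold change -0.33, limma adjusted p = 0.0379), and unc-54 and myo-3 passed with median-of-ratios scaling. By sign, 6 muscle markers were lower and 2 higher. The higher ones were pat-10, without overlap (log2 fold change 0.16, limma adjusted p = 0.255), and unc-27 (0.04). Sums of epidermal markers overlapped, at 5064 to 5485 RPKM in worms on rab-11.1 RNAi and 4789 to 6258 RPKM in worms on EV RNAi. Among them the adult collagen gene col-19 stood at 17.18, 3.243 and 48.64 RPKM in worms on rab-11.1 RNAi, against 243.7, 43.62 and 210.5 RPKM in worms on EV RNAi. It overlapped between the groups and was lower in each pair of the same number, at a log2 fold change of -3.08 (limma adjusted p = 0.107, and 0.00358 with the replicate block). Neuronal markers summed to 219.6 to 277.8 RPKM in worms on rab-11.1 RNAi and 179.3 to 234.7 RPKM in worms on EV RNAi, and pharyngeal gland markers to 167.9 to 282.3 RPKM in worms on rab-11.1 RNAi and 280.4 to 288.1 RPKM in worms on EV RNAi. The part of tissue content in the coat values was not tested.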

How the data were processed

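The authors deposited RPKM values of 46739 features in 6 libraries of paired reads, per the file headers. Per the submitters' processing notes, WBcel235 was the build. The aligner, counter, annotation and strandedness were not given in the sources used here. GEO labels call the libraries biological replicates. Whether they came from separate cultures is not stated, so p-values measure the spread between these libraries.

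Gene positions come from Ensembl release 115 (WBcel235), looked up by symbol or sequence name. Some names were tied to their present symbols from general knowledge of the nomenclature, among them arf-1.2, arf-1.1 and arf-3. Depth was recovered from the most frequent step between low RPKM values at annotated exon length. Whole reads of the members came from the length that gave whole reads in every library (tolerance 0.01 reads). For all 10 members this was a length solved from the values, not the annotated one, such as 3552 against 3663 bases for sec-24.2. Whole reads were found for 19491 of 19491 features above 0, and limma-voom on them, an alternative added after the steps were seen, called 1122.

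The test, limma 3.58.1 under R 4.3.3, ran on log2(RPKM + 1) of each feature that reached 1 RPKM in 3 libraries. eBayes used a trend and robust settings, group was the only term, and Benjamini-Hochberg adjustment ran over all tested features at 0.05, two-sided. Fold changes are on the log2(RPKM + 1) scale. The fit was tested on simulated data. Alternatives were pseudocounts of 0.1 and 5, no filter, no trend, median-of-ratios scaling, quantile normalization, the replicate block, leaving out each library and leaving out both replicate 3 libraries.

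The members and lists were chosen with earlier results of these data known. Named were all members, rab-11.1, the other coat subunits and up to 6 passing genes per pathway list. Genes named outside this rule are said to be so, apart from antisense neighbours, tissue markers, arf-3, hsp-3, atf-6, pek-1 and genes named for an unadjusted p after rescaling. Of the 71 pathway genes 3 were not matched and 1 was below the filter. The labels number the replicates of each group and do not state that libraries of the same number were paired. Deviations from the group means correlated across genes at 0.4, 0.62 and 0.35 between libraries of the same number, so the numbers were taken as pairs, although rab-11.1 RNAi replicate 3 and EV RNAi replicate 1 also correlated, at 0.46.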

Additional observations from a re-analysis of the deposited data

How the results depend on the processing

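Over all 15 alternatives 0 of the 10 members passed (150 fits of a member, lowest adjusted p = 0.102, log2 fold changes -0.26 to 0.14). Members at an unadjusted p under 0.05 numbered 3 with median-of-ratios scaling, 1 with quantile normalization and 0 otherwise. The signs of sec-23, sec-24.1 and sec-24.2 held throughout. Median-of-ratios scaling turned sar-1 (-0.06), copa-1 (-0.05), copb-1 (-0.11), copb-2 (-0.06), copd-1 (-0.02), copg-1 (-0.09), arf-1.2 (-0.11), sec-31 (-0.02) and cope-1 (-0.08). Quantile normalization turned copb-1 (-0.07), copb-2 (-0.003), copg-1 (-0.05), sec-31 (-0.03) and cope-1 (-0.07). Leaving out 1 library turned arf-1.2 (-0.0016 and -0.0005, range -0.0016 to 0.03) and cope-1 (-0.0019, range -0.0019 to 0.07). The median-of-ratios factors were 1.05 in the rab-11.1 RNAi libraries and 0.9419 to 0.9751 in the EV RNAi libraries.

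Calls over all features numbered 1245, with 773 by quantile normalization, 2906 with the replicate block and 284 to 1063 when 1 library was left out. Over the pathway lists 9 became 5 with quantile normalization, 16 with the replicate block, 3 with the block but no replicate 3 library, and 4 to 6 when 1 library was left out. Each library but EV RNAi replicate 2 moved both counts by over 1.5 times when left out. These fits hold fewer libraries, and for the other settings the cause was not tested. The sec-24.1 over sec-24.2 difference kept its sign (0.034 to 0.073 when 1 library was left out, 0.06 with the replicate block, exact sign-flip p = 0.25, the smallest that 3 pairs can give). The block changed no call of a member.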

Other observations

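A pair of genes were chosen after their values were seen. The exit site scaffold gene tfg-1, whose product helps to organise COPII assembly, was at 118.3, 109 and 118.1 RPKM in worms on rab-11.1 RNAi, against 149.1, 133.2 and 133.4 RPKM in worms on EV RNAi. The groups did not overlap, and the log2 fold change of -0.26 did not pass (95% interval -0.45 to -0.08, limma adjusted p = 0.0884). It passed with median-of-ratios scaling (log2 fold change -0.39, limma adjusted p = 0.0384) and, at the threshold itself, with the replicate block (limma adjusted p = 0.05 after rounding up). The translocon channel gene listed as sec-61 stood at 648.7, 525.7 and 658.3 RPKM in worms on rab-11.1 RNAi, against 780.7, 711.2 and 774 RPKM in worms on EV RNAi. These groups did not overlap either, and its log2 fold change of -0.31 did not pass (limma adjusted p = 0.118) except with the replicate block (limma adjusted p = 0.0355). Of the 12 tested genes for entry into the endoplasmic reticulum, 5 were lower without overlap (sec-61 and trap-1 to trap-4) and 3 higher (sec-62, spcs-1 and spcs-3), and 0 passed by limma (2 at an unadjusted p under 0.05). Of all tested features, 6.53% were lower and 27.4% higher without overlap. With median-of-ratios scaling sec-61, sec-61.B, trap-1 to trap-4 and srpa-72 were lower at an unadjusted p under 0.05 by limma, and 0 passed.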
